A study of Mus musculus with 16 samples.

Results

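The specific (secondary) granule genes were followed here as a group of 8 named genes, Ltf, Camp, Ngp, Lcn2, Cd177, Olfm4, Chil3 and Ly6g, out of the 49315 genes listed in the count files. They were chosen by name as genes that neutrophil precursors transcribe, with no threshold on a measured value. The study compared neutrophils of wild type (WT) mice with those of mice lacking integrin αD (CD11d, encoded by Itgad), sorted from blood or lung, either from naïve animals (0h, no surgery) or 12 hours after cecal ligation and puncture (CLP), a surgical model of polymicrobial abdominal sepsis. All mice were male and 8 to 12 weeks old, and the naïve groups had no sham operation. Each combination of genotype, tissue and time was represented by 2 samples and 3 count files, taken here as libraries 1a and 1b (both listed under sample 1) and library 2, which gave 8 groups and 24 libraries. The sources do not state whether 1a, 1b and 2 came from separate animals, so all p-values measure only the spread between these libraries, which may be technical. The cells were sorted as Ly6G+ CD11b+ CD45.2+, so Ly6G protein, the product of 1 of the 8 genes, was itself the sort marker.

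Neutrophils make their granules in sequence while they mature in the bone marrow. Azurophil granules are filled first at the promyelocyte stage, specific granules at the myelocyte and metamyelocyte stages, and gelatinase granules and secretory vesicles last. Transcription of the specific granule genes largely ends before the cell leaves the marrow, while the proteins stay stored, so that circulating mature neutrophils carry lactoferrin or cathelicidin protein with little of its mRNA. Under infection the marrow releases younger neutrophils, and some of these genes, Lcn2 in particular, can also be induced by cytokines in mature cells and in other cell types. The C/EBP family of transcription factors, above all C/EBPε, drives the group.

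Of the matrix proteins, Ltf encodes the iron-binding protein lactoferrin, Camp the precursor of the antimicrobial cathelicidin peptide, Ngp the neutrophilic granule protein (a cystatin relative of cathelicidin), and Lcn2 lipocalin-2, which captures bacterial siderophores. Olfm4 encodes olfactomedin-4, a glycoprotein held in the specific granules of a subset of neutrophils. Chil3 encodes the chitinase-like lectin Ym1. The surface proteins are Cd177, a GPI-anchored receptor that is kept in specific granules and on the plasma membrane, and Ly6g, the GPI-anchored antigen used to sort mouse neutrophils.

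All 8 genes are protein coding, and none overlapped another listed gene. On GRCm38, Camp (chromosome 9, 109847379 to 109849617, minus strand), Ngp (chromosome 9, 110419747 to 110423012, plus strand) and Ltf (chromosome 9, 111019271 to 111042767, plus strand) lie in this order, with 570 kb between Camp and Ngp and 596 kb between Ngp and Ltf. The other genes are dispersed. Lcn2 is on chromosome 2 (32384633 to 32388252, minus strand), Cd177 on chromosome 7 (24743983 to 24760311, minus strand) and Olfm4 on chromosome 14 (80000302 to 80021930, plus strand). Chil3 is on chromosome 3 (106147554 to 106167564, minus strand) and Ly6g on chromosome 15 (75155240 to 75159126, plus strand). The coordinates of Olfm4 in the files differed from those of the GENCODE annotation used here, and those of the other 7 were the same.

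The promoters of the 3 genes of chromosome 9 and of Lcn2 are shown because the first 3 varied widely between naïve blood libraries and Lcn2 far less, as described below. Chil3, not shown, varied as widely as Camp in naïve WT blood (88.3-fold and 87.9-fold from library 1b to 1a). Each runs 5′ to 3′ from 250 bases before to 50 bases after the RefSeq start (GRCm38.p6), in lower case, with matches to any of 3 motifs in capitals. The motifs, searched on both strands, were a C/EBP-like pattern TTGCNNNAA, the short C/EBP element GCAAT and the PU.1 core GGAAGT. The usual C/EBP core leaves fewer bases free between TTGC and AA and was not searched. The windows are chr9:111019042-111019341 (plus strand) for Ltf, chr9:109849407-109849706 (minus strand) for Camp, chr9:110419558-110419857 (plus strand) for Ngp and chr2:32387690-32387989 (minus strand) for Lcn2.
Ltf: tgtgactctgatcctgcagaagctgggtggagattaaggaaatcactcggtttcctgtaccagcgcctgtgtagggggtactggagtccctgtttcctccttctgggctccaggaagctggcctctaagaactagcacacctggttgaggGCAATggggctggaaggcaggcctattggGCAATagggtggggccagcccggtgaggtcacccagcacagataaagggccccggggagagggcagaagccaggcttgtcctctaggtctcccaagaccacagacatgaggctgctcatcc
Camp: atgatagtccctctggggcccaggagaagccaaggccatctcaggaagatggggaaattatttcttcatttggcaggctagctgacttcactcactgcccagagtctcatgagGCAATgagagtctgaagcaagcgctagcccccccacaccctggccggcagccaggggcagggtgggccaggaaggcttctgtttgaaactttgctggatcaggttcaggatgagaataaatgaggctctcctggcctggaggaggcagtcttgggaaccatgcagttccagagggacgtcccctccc
Ngp: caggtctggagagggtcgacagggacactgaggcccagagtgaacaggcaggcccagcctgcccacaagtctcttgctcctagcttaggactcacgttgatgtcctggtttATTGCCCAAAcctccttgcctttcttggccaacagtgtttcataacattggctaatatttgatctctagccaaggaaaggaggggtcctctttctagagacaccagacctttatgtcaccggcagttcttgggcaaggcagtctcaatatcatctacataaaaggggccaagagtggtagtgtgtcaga
Lcn2: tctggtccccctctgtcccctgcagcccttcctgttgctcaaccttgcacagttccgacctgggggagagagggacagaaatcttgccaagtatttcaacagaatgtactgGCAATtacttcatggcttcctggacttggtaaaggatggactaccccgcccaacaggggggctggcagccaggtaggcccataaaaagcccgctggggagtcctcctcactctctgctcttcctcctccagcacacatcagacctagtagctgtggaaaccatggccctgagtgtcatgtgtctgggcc
GCAAT was found in the windows of 5 of the 8 genes, Ltf, Camp, Ngp, Lcn2 and Chil3, and in 26.4% of the 32851 promoters of the table. It began 100 and 71 bases before the start in Ltf, 137 bases before it in Camp and 139 bases before it in both Ngp and Lcn2, in Ngp on the opposite strand. The C/EBP-like pattern was found in Ngp, where it overlapped the short element, and in Olfm4, against 9.56% of all promoters. The PU.1 core was found in Cd177, Olfm4, Chil3 and Ly6g, against 23.8% of all promoters. These are matches of letters in a window and not sites shown to be bound.

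The libraries held between 5753476 and 29984954 counts, and the lowest raw count of any of the 8 genes in any library was 31 (Olfm4). Levels are CPM, counts scaled to library size with TMM factors over the 24 libraries, in the order 1a, 1b and 2 wherever 3 values stand together. Itgad itself went against its labels: it ranged over 12.6 to 96.1 CPM where the label was αD KO but over 0.0522 to 4.08 CPM where it was WT. A count per gene cannot separate mRNA of a disrupted allele from normal mRNA, so αD KO below means only that a library carries this label. S100a8 was at least 11208 CPM and S100a9 at least 9335 CPM in every library, as the neutrophil label would have it. Of other markers, erythroid genes summed to between 23.5 and 8842 CPM and B cell genes to between 30.0 and 1453 CPM. Bulk counts cannot tell fewer cells of a type from less RNA per cell.

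Some libraries stood apart. The 8 libraries 1b listed counts for 29162 to 38844 genes, against 17132 to 32666 genes in the other 16 libraries, and at 0h the 1b libraries had far less of several specific granule transcripts than their neighbours (below). In αD KO lung, 3 libraries stood away from their time label. Csf3r, the G-CSF receptor, was between 5243 and 10844 CPM in all other 0h libraries but 2184 CPM in αD KO lung 0h library 2. It was between 890.4 and 3392 CPM in all other 12-hour libraries but 9098 and 13025 CPM in αD KO lung 12-hour libraries 1a and 2. Itgad had the same split, at 53.4, 76.9 and 16.3 CPM in αD KO lung at 0h and 80.1, 17.5 and 96.1 CPM at 12 hours. In αD KO blood Itgad was between 49.3 and 92.2 CPM at 0h and between 12.6 and 18.2 CPM at 12 hours. The 3 αD KO lung libraries were kept under their labels, and each edgeR comparison of the 8 genes that uses them is also given without them.

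In naïve WT neutrophils the group was expressed at low to moderate levels with a wide spread. Per kilobase of exon, Ngp had the highest mean in every group, though its libraries lay clear of those of the next gene only in blood at 12 hours, in both genotypes. Its mean ran from 340 ± 261 CPM per kb in WT lung at 0h to 43011 ± 17918 CPM per kb in WT blood at 12 hours (SD, n = 3). Olfm4 had the lowest mean in 7 of the 8 groups, at 5.22 ± 3.79 CPM per kb in WT blood at 0h, and Ly6g was the lowest in WT blood at 12 hours, where the 2 overlapped. In blood at 0h of both genotypes the order after Ngp was Camp, Ltf, Chil3, Lcn2, Cd177 and Ly6g, and each neighbouring pair overlapped between libraries, except that Ly6g lay above Olfm4 without overlap in WT. In the lungs of both genotypes at both times, Lcn2 came next and Chil3 after it. In WT blood at 12 hours Ngp, Chil3 and Lcn2 stood in this order without overlap, and Ltf and Camp, at 3766 ± 2641 and 3733 ± 3510 CPM per kb, could not be ordered.

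**Figure D1:**
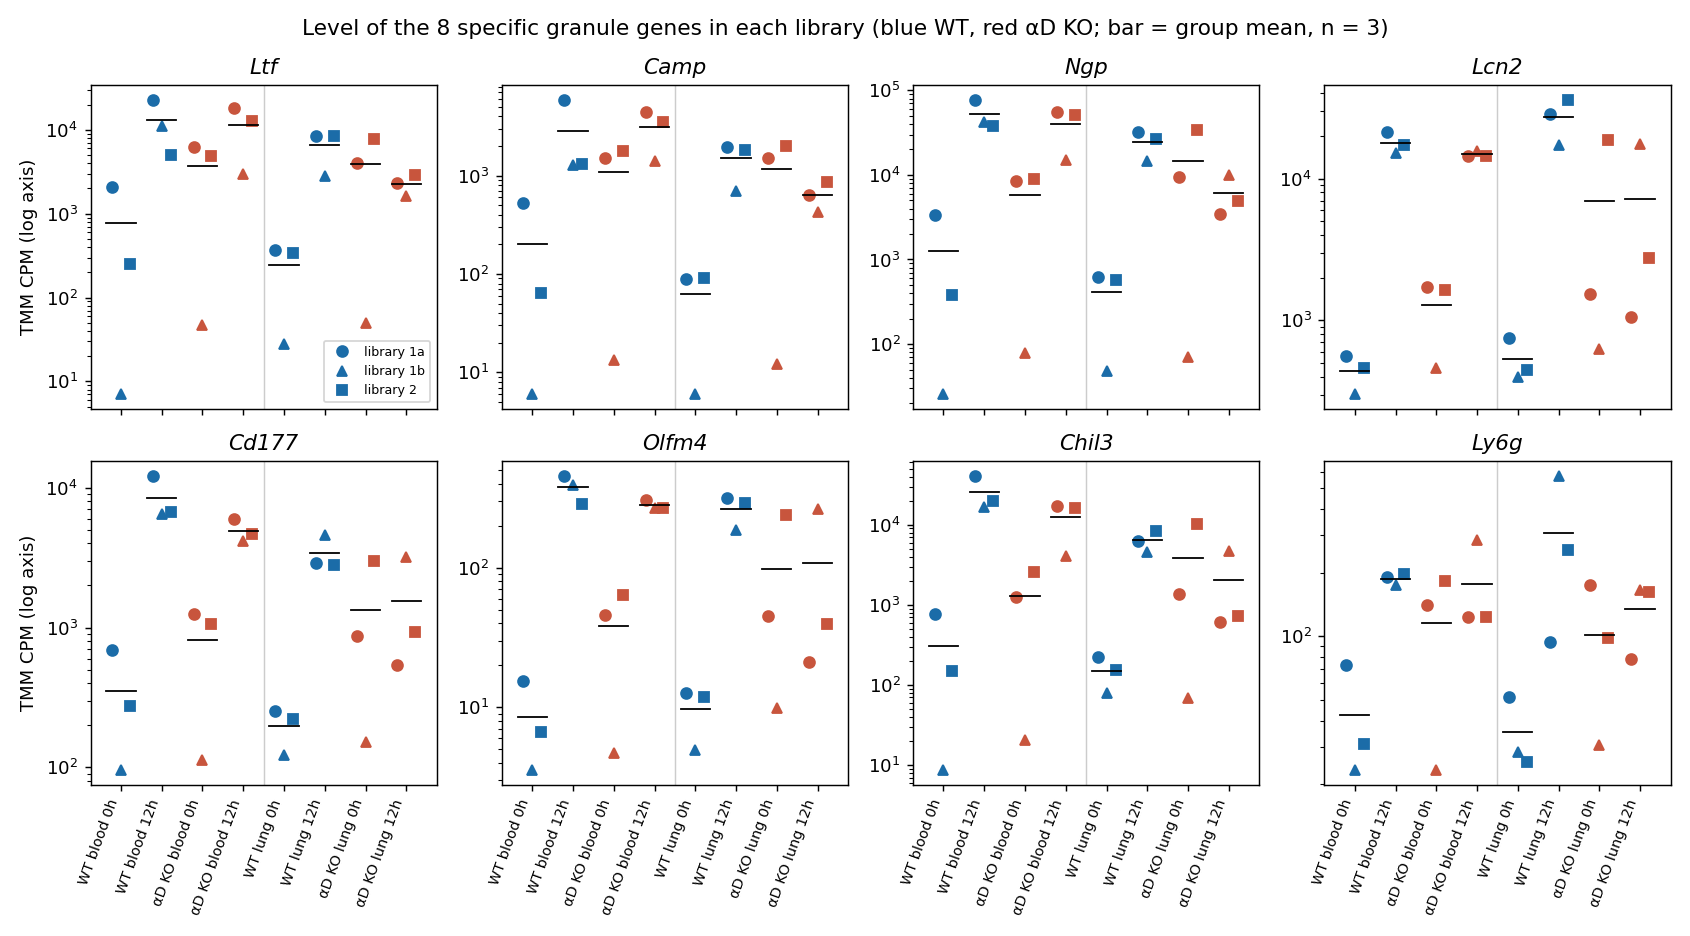
Level of each gene in each of the 24 libraries, in TMM CPM on a log axis, with a bar at the group mean (n = 3 libraries), blue for WT and red for αD KO, and circles, triangles and squares for libraries 1a, 1b and 2. In WT blood and lung every 12-hour point lies above every 0h point for all 8 genes, while the αD KO lung points of both times overlap.

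The spread between naïve libraries differed sharply between the genes. In WT blood at 0h, Ltf was 292-fold, Ngp 133-fold, Chil3 88.3-fold and Camp 87.9-fold higher in library 1a than in 1b. Lcn2 was only 1.85-fold higher, Ly6g 3.12-fold, Olfm4 4.39-fold and Cd177 7.26-fold. The same genes were spread widely in αD KO blood at 0h, where library 1a exceeded 1b by 132-fold for Ltf, 111-fold for Camp and 107-fold for Ngp, against 3.72-fold for Lcn2. In WT lung at 0h the difference was 13.2-fold for Ltf and 1.88-fold for Lcn2. Over all 24 libraries the range from lowest to highest was 4734-fold for Chil3, 3247-fold for Ltf, 3033-fold for Ngp and 979-fold for Camp, and 130-fold or less for the other 4 genes.

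Together the 8 genes took a large share of the septic WT libraries. Their summed counts were 0.768%, 0.0721% and 0.178% of the library in WT blood at 0h and 13.3%, 9.57% and 7.53% at 12 hours post CLP. In WT lung they were 0.241%, 0.0942% and 0.191% at 0h and 5.22%, 4.34% and 5.50% at 12 hours. The WT groups did not overlap in either tissue. In αD KO blood the shares were 2.21%, 0.108% and 2.51% at 0h and 10.6%, 3.86% and 9.75% at 12 hours, again without overlap. In αD KO lung they were 2.13%, 0.136% and 6.39% at 0h and 0.984%, 3.84% and 1.19% at 12 hours, and the times overlapped.

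**Figure D2:**
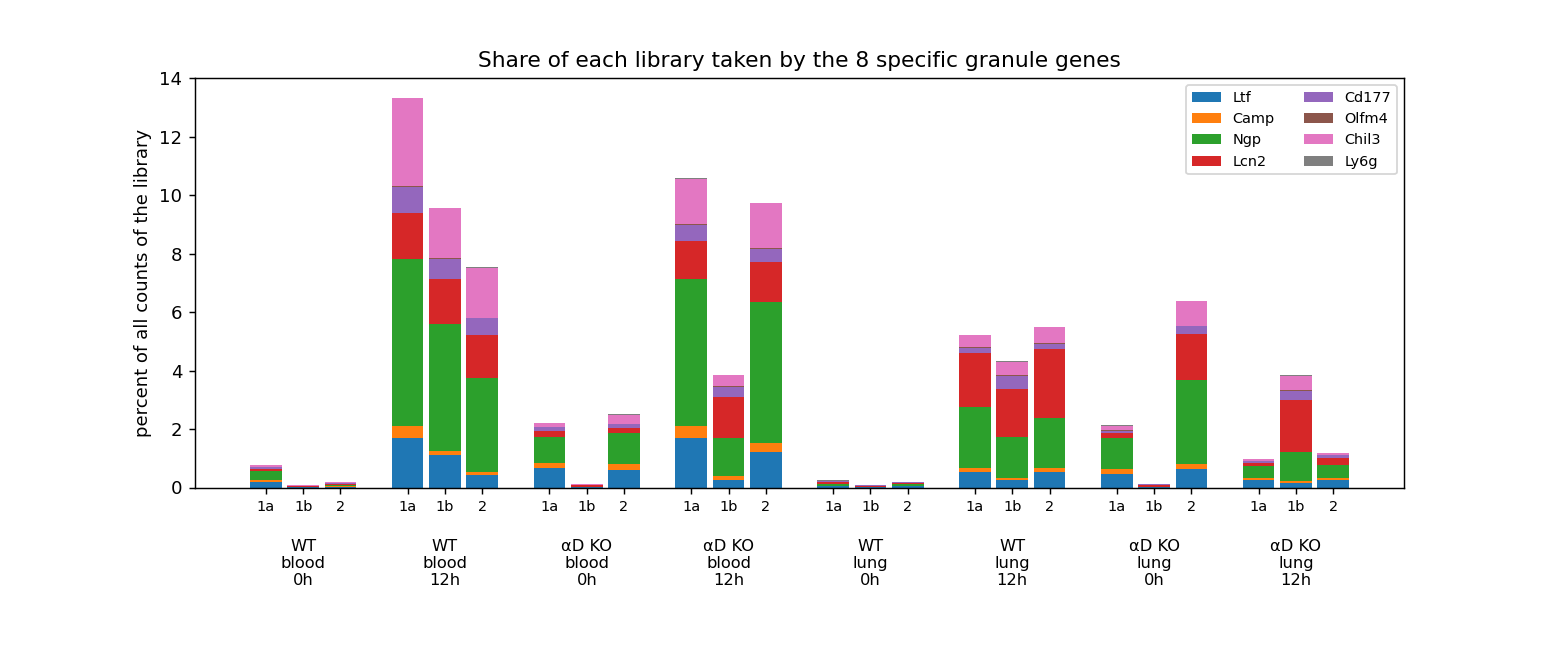
Percent of all counts of each library taken by the 8 genes, stacked by gene, with the bars starting at 0 and libraries 1a, 1b and 2 side by side in each group. The WT blood 12-hour bars reach 7.53% to 13.3% and the WT lung 12-hour bars 4.34% to 5.50%, against at most 0.768% in any naïve WT library.

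To determine how the specific granule genes responded to CLP in WT blood, 12 hours was compared with 0h. All 8 genes were higher in every 12-hour library than in any 0h library, which was the case for 21.7% of the 14625 genes tested. With edgeR's quasi-likelihood test (adjusted p under 0.05 and absolute log2 fold change over 1), 5 of the 8 genes rose, Chil3, Olfm4, Lcn2, Cd177 and Ly6g, against 7.75% of genes tested that were called higher. The median log2 fold change of the 8 genes was 4.89, beside −0.15 over all genes tested. Markers of neutrophils and of other cells moved with the same contrast. The 6 neutrophil markers summed to between 36381 and 45437 CPM at 0h and between 115282 and 174605 CPM at 12 hours. Of them 3 were called higher, and Csf3r lower. T and NK cell markers summed to at least 19.2 CPM at 0h and at most 14.9 CPM at 12 hours. Alveolar macrophage markers summed to at least 43.7 CPM and then at most 13.9 CPM. The B cell genes summed to between 334 and 1198 CPM at 0h and between 43.9 and 233 CPM at 12 hours, those of monocytes and macrophages to between 516 and 1211 CPM and then between 178 and 351 CPM, those of eosinophils to between 36.2 and 65.4 CPM and then between 7.63 and 7.99 CPM, and those of platelets to between 50.9 and 138 CPM and then at most 27.1 CPM. Their part in the result was not tested. The naïve WT libraries used here were also the controls of the genotype comparisons below.

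Chil3, the chitinase-like lectin, had the largest fitted change (SE below is the standard error on the log2 scale). It was 764, 8.65 and 151 CPM at 0h and 40957, 16765 and 19922 CPM at 12 hours (fitted log2 change 6.31, SE 1.50, adjusted p = 0.0318). Its near-identical paralog Chil4 was at most 154 CPM in any library, and reads that match both would be left out of counts of unique reads. Olfm4 was 15.5, 3.53 and 6.63 CPM at 0h and 457, 395 and 286 CPM at 12 hours (fitted log2 change 5.39, SE 0.63, adjusted p = 0.0034). Lcn2 was 559.9, 302 and 462 CPM at 0h and 21228, 15286 and 17292 CPM at 12 hours (fitted log2 change 5.29, SE 0.51, adjusted p = 0.0021). Lcn2 and Olfm4 had SEs well below that of Chil3. Both surface protein genes rose as well. Cd177 went from 693, 95.4 and 274 CPM to 12182, 6448 and 6664 CPM (fitted log2 change 4.50, SE 0.81, adjusted p = 0.0135). Ly6g went from 72.9, 23.3 and 31.2 CPM to 190.4, 174 and 197 CPM (fitted log2 change 2.08, SE 0.46, adjusted p = 0.0249), the smallest of the 8.

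The 3 genes of chromosome 9 had fitted changes of similar size but did not pass the test. Ngp was 3395, 25.6 and 375 CPM at 0h and 77687, 42426 and 37566 CPM at 12 hours (fitted log2 change 5.30, SE 1.56, adjusted p = 0.0618). Ltf was 2064, 7.06 and 249 CPM at 0h and 22919, 11046 and 5010.5 CPM at 12 hours (3.99, SE 1.61, adjusted p = 0.147). Camp was 530.1, 6.03 and 63.6 CPM at 0h and 5902, 1279 and 1308 CPM at 12 hours (3.73, SE 1.44, adjusted p = 0.132). Their groups did not overlap, but at 0h library 1b lay far below library 1a in each of these genes. Within each library number the 12-hour value exceeded the 0h value for all 8 genes, by a median of 20.2-fold in 1a, 162-fold in 1b and 30.9-fold in 2. With the library number as a replicate block, all 8 genes passed (Ngp 6.99, adjusted p = 0.0112, Ltf 5.33, adjusted p = 0.0353, and Camp 4.95, adjusted p = 0.0091), while the calls over the whole table went from 1975 to 2692 of 14625 genes. The DESeq2 Wald test also called all 8, against 7.06% of the genes it tested in either direction. The count of called genes was sensitive to single libraries. It was 1 without 0h library 1a, 0 without 0h library 2, 0 without 12-hour library 1a and 0 without 12-hour library 2, when 150, 46, 19 and 2 genes of the whole table were called.

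In WT lung, the same comparison gave changes of similar size. All 8 genes were again higher in every 12-hour library than in any 0h library (14.7% of the 14859 genes tested), and all 8 rose by edgeR's quasi-likelihood test, against 5.24% of genes tested that were called higher. The median log2 fold change was 4.71, beside 0.03 over all genes. Alveolar macrophages also express Chil3, and the 6 markers of that cell type summed to between 82.0 and 114 CPM at 0h and to at most 25.8 CPM at 12 hours. Lung structural genes summed to between 53.7 and 184 CPM at 0h and between 76.0 and 424 CPM at 12 hours. Other lists summed lower at 12 hours without overlap, with B cell markers at between 478 and 750 CPM and then between 30.0 and 101 CPM (3 of 6 genes passed lower), monocyte and macrophage markers at between 604 and 936 CPM and then between 249 and 299.8 CPM (F13a1 passed higher and 2 of the 7 tested lower, with a median log2 change of 0.24), and eosinophil markers at between 66.4 and 119.6 CPM and then between 3.97 and 19.7 CPM (2 of 2 tested passed lower). The 6 neutrophil markers summed to between 41245 and 49393 CPM at 0h and between 64181 and 167940 CPM at 12 hours. Of them only Csf3r passed, lower. The part of these cell sources and markers in the result was not tested.

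Ngp went from 619, 48.2 and 579.6 CPM to 32477, 14467 and 26556 CPM (fitted log2 change 5.85, SE 1.05, adjusted p = 0.0178). Lcn2 went from 748, 399 and 448 CPM to 28620.3, 17371 and 36096 CPM (5.66, SE 0.63, adjusted p = 0.0049), and Lcn2 in WT lung at 12 hours, 27363 ± 9426 CPM (SD, n = 3), was the highest group mean of Lcn2 in the study. Chil3 went from 222, 78.6 and 152 CPM to 6283, 4633 and 8299 CPM (5.38, SE 0.61, adjusted p = 0.0050). The errors of Lcn2, Chil3, Olfm4 and Cd177 were the smallest of the group. Olfm4 went from 12.6, 4.94 and 11.8 CPM to 319, 185 and 293 CPM (4.74, SE 0.50, adjusted p = 0.0045), and Cd177 from 253, 122 and 219.9 CPM to 2882, 4577 and 2795 CPM (4.11, SE 0.53, adjusted p = 0.0071). Lactoferrin and cathelicidin transcripts passed the test here, and the difference from blood is tested below. Ltf went from 369, 28.0 and 344 CPM to 8471, 2835 and 8358 CPM (4.68, SE 1.00, adjusted p = 0.0293), and Camp from 89.2, 6.03 and 91.4 CPM to 1968, 699.9 and 1809 CPM (4.54, SE 0.99, adjusted p = 0.0301). Ly6g went from 51.6, 28.5 and 25.6 CPM to 93.9, 574 and 255 CPM (3.15, SE 0.70, adjusted p = 0.0315), with its largest value in library 1b.

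These calls also rested on the form of the fit and on single libraries. With all 8 groups in a single fit, 4 of the 8 genes passed (447 of 27145 genes of the whole table). With the library number as a replicate block, Ly6g did not pass (edgeR adjusted p = 0.0687, 893 of 14859 genes called). Without 0h library 1a, 0h library 2, 12-hour library 1a or 12-hour library 2 in turn, none of the 8 genes passed in WT lung, and edgeR then called 0, 0, 0 and 27 genes of the whole table. All 4 fits kept every direction, and without both 1b libraries all 8 passed, when 37.2% of all genes tested did. Leaving out 12-hour library 1b alone kept all 8 calls, with 3941 genes called in all. Among the 54 genes listed from Camp to Ltf on chromosome 9, 26 were tested in WT lung. The 3 specific granule genes themselves define this interval, so its share of calls cannot be set beside the 5.24% of all genes tested. Of the 26 genes 5 were called higher, the 3 that define the interval and, chosen after their values were seen, Mir6236 and Tdgf1. None was called lower there, and of the 24 tested in WT blood none was called in either direction.

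**Figure D3:**
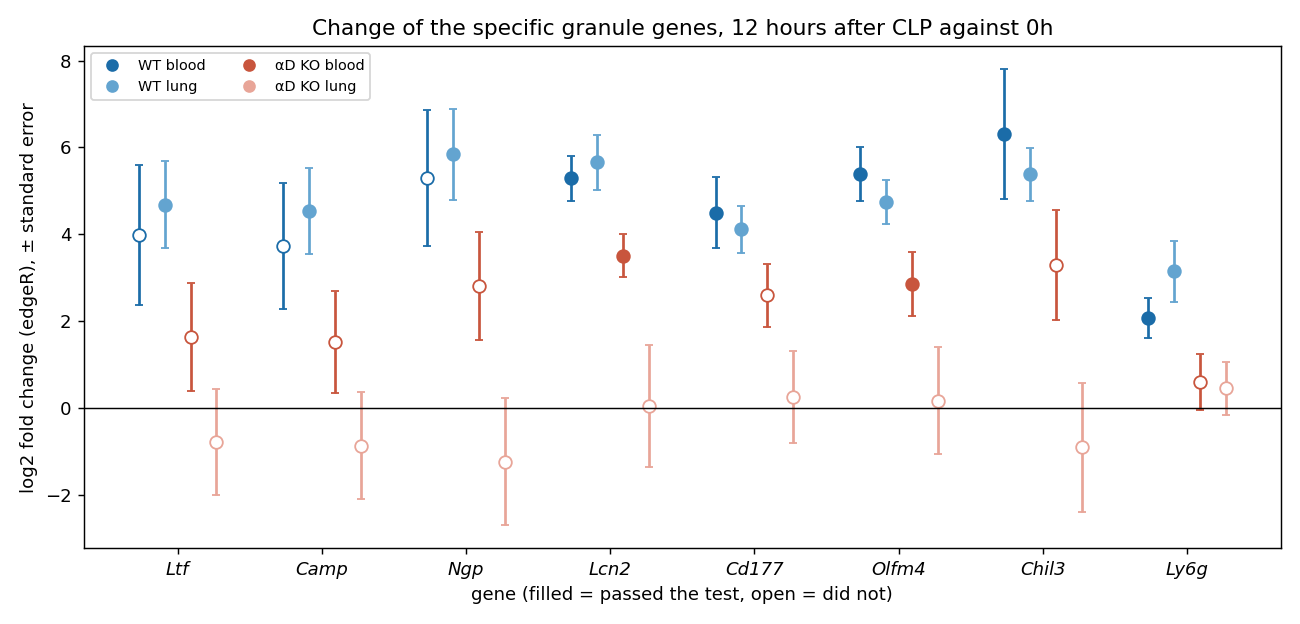
Fitted log2 fold change of each gene at 12 hours post CLP against 0h (edgeR), with bars of 1 standard error, in WT blood, WT lung, αD KO blood and αD KO lung, filled where the gene passed the test. The WT points lie between 2.08 and 6.31, the αD KO blood points between 0.60 and 3.51 and the αD KO lung points between −1.24 and 0.45.

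To see whether the tissue mattered, WT lung and blood were compared at each time. At 0h no specific granule gene passed (edgeR), nor did any of the 15967 genes tested (0.0%), 406 of which had an unadjusted p under 0.05. DESeq2 called 44 genes of the whole table (0.104%) and none of the 8. The fitted log2 differences, lung minus blood, ran from −1.74 (Camp) to 0.21 (Lcn2), and all adjusted p were 0.9995. All 8 changed sign with some single library left out, so no direction is given for them at 0h. At 12 hours none of the 8 passed, against 6 genes called higher in lung among 13590 (0.0442%) and none called lower (65 called with the library number as a block, none of them among the 8). Chil3 was lower in every lung library (6283, 4633 and 8299 CPM) than in any blood library (40957, 16765 and 19922 CPM), with a log2 difference of −1.99 (SE 0.48, adjusted p = 0.131). The same held for Ngp (−1.10, adjusted p = 0.282) and Cd177 (−1.23, adjusted p = 0.221), and 15.1% of genes tested were lower without overlap. DESeq2 called Chil3 (adjusted p = 0.0012) and no other of the 8, against 2.16% of the genes it tested. Without lung library 1b, edgeR called Cd177 and Chil3, when 2916 of 14435 genes of the whole table were called. Lcn2 and Ly6g had log2 differences of 0.61 and 0.82 (adjusted p = 0.455 and 0.500), their libraries overlapped, and Ly6g turned to −0.20 with libraries 1a and 2 only. Lung structural markers summed to between 76.0 and 424 CPM in lung and between 16.5 and 17.2 CPM in blood at this time, and their part was not tested. The difference between the CLP changes of lung and blood, tested as an interaction, ran from −1.06 (Chil3) to 0.88 (Ly6g), and no gene of the 8 passed (adjusted p between 0.889 and 0.963, 0.0% of 23497 genes called and 1290 at an unadjusted p under 0.05, with 92 or 0.213% called by DESeq2, none of them among the 8, and no adjusted p for Camp).

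In αD KO blood, 12 hours post CLP against 0h, all 8 fitted changes were positive, between 0.60 (Ly6g) and 3.51 (Lcn2), with a median of 2.70 beside −0.14 over all genes. Lcn2 and Olfm4 rose, 2 of the 8, against 3.75% of the 14156 genes tested that were called higher. Lcn2 was 1729, 464 and 1644 CPM at 0h and 14441, 15647 and 14348 CPM at 12 hours (3.51, SE 0.50, adjusted p = 0.0074). Olfm4 was 46.0, 4.68 and 63.9 CPM at 0h and 306, 268 and 269 CPM at 12 hours (2.87, SE 0.74, adjusted p = 0.0494). B cell markers summed to between 366 and 1453 CPM at 0h and to between 37.7 and 121 CPM at 12 hours, monocyte and macrophage markers to between 638 and 1739 CPM and then between 149 and 221 CPM, eosinophil markers to between 37.2 and 59.9 CPM and then at most 4.48 CPM, all without overlap, and platelet markers to between 29.8 and 648 CPM and then at most 36.2 CPM. The 6 neutrophil markers summed to between 39101 and 55282 CPM at 0h and between 97344 and 142537 CPM at 12 hours. Of them 3 passed higher, and Csf3r lower. What part these markers had in the result was not tested. The 12-hour libraries of Lcn2 and Olfm4 lay close together, with SDs of 725 around 14812 CPM and of 21.7 around 281 CPM. Ngp, Cd177 and Chil3 were also higher in every 12-hour library than in any 0h library, so that 5 of the 8 genes did not overlap, against 15.6% of genes tested. Cd177 was 1249, 113 and 1068 CPM at 0h and 5945, 4125 and 4697 CPM at 12 hours (2.59, SE 0.72, adjusted p = 0.0602).

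The remaining genes of αD KO blood had higher naïve levels in libraries 1a and 2 than in 1b. Ltf was 6161, 46.6 and 4893 CPM at 0h and 18463, 2979.8 and 12783 CPM at 12 hours (1.63, SE 1.24, adjusted p = 0.433). Camp was 1493, 13.5 and 1779 CPM at 0h and 4452, 1414 and 3531 CPM at 12 hours (1.52, SE 1.18, adjusted p = 0.439). In both genes library 1b at 12 hours lay below libraries 1a and 2 at 0h. The fitted log2 change was 2.80 for Ngp (adjusted p = 0.186), 3.29 for Chil3 (adjusted p = 0.140) and 0.60 for Ly6g (adjusted p = 0.583). Ly6g was 141, 23.3 and 183 CPM at 0h and 123, 285 and 124 CPM at 12 hours, lower after CLP in libraries 1a and 2 and higher in 1b. The number of calls moved with the libraries, the scaling and the form of the fit. With all groups in a single fit 0 of the 8 passed (64 of 27145 genes of the whole table), and with the replicate block 5 passed (1520 of 14156 genes). Without both 1b libraries 7 of the 8 passed (as did 1558 of 14178 genes of the whole table), with the 2 files of sample 1 summed 6 passed (635 of 16521 genes), with total counts as the only scaling 1 passed (1585 of 14156 genes), and without 0h library 1a none passed (74 of 16216 genes). Without 0h library 2, or without 12-hour library 1a, 1b or 2, Lcn2 alone passed, when 571, 260, 1414 and 167 genes of the whole table were called.

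In αD KO lung, no change with CLP could be seen under the labels as deposited. None of the 8 genes passed (edgeR adjusted p = 0.9999 for each), none of the 17939 genes tested did (0.0%), 72 of them (0.401%) had an unadjusted p under 0.05, and DESeq2 called none. The fitted log2 fold changes were −1.24 for Ngp, −0.90 for Chil3, −0.87 for Camp, −0.79 for Ltf, 0.05 for Lcn2, 0.17 for Olfm4, 0.25 for Cd177 and 0.45 for Ly6g, with standard errors between 0.62 and 1.48. The summed levels of all 8 marker lists of other cells overlapped between the times, with the 3 libraries in doubt included. Eosinophil markers were 78.0, 72.0 and 4.01 CPM at 0h and 57.0, 8.38 and 85.2 CPM at 12 hours. B cell markers were 443, 322 and 49.9 CPM and then 507, 72.8 and 494 CPM. Both were lowest in 0h library 2 and 12-hour library 1b, while erythroid markers at 0h were highest in library 2 (3241 CPM). The libraries of each time were split for 4 of the genes. Lcn2 was 1537, 633 and 18807 CPM at 0h and 1058, 17649 and 2754 CPM at 12 hours, so that library 2 of 0h and library 1b of 12 hours were high and the other 4 were at most 2754 CPM. Chil3 was 1357, 68.3 and 10122 CPM at 0h and 604, 4773 and 732 CPM at 12 hours. Olfm4 was 44.8, 9.93 and 239 CPM at 0h and 21.2, 263 and 39.7 CPM at 12 hours, and Cd177 had the same split (869.9, 153 and 2970.1 CPM, then 540.1, 3215 and 923 CPM).

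The chromosome 9 genes did not follow the split as closely. Ltf was 4026, 50.2 and 7676 CPM at 0h and 2306, 1611 and 2907 CPM at 12 hours, and Camp was 1491, 12.1 and 2006 CPM at 0h and 634, 427 and 854 CPM at 12 hours. Both were lowest in the 2 libraries 1b. Ngp was 9367, 70.6 and 34167 CPM at 0h and 3472, 10002 and 4903 CPM at 12 hours. Without the 3 libraries that stood away from their time label (2 against 1 library, with the lone 12-hour library 1b assumed to vary as the others), Lcn2 and Olfm4 passed, with log2 fold changes of 3.85 (adjusted p = 0.0009) and 3.07 (adjusted p = 0.0012), as did 326 of 23183 genes of the whole table. These libraries were set aside by their level of Csf3r, which passed lower with CLP in the other 3 comparisons, so this fit is a description and not independent of the time contrast. Chil3 was then 2.52 (adjusted p = 0.0685), Cd177 2.45 (adjusted p = 0.0738) and Ngp 0.85 (adjusted p = 1), while Ltf and Camp stayed at −0.57 and −1.05. Ly6g was 176, 30.7 and 98.5 CPM at 0h and 78.1, 166 and 161 CPM at 12 hours, and its fitted change was 0.48 without the 3 libraries.

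In the naïve comparison of genotypes, the fitted level of every gene was higher in αD KO than in WT, and none passed. In blood at 0h the log2 differences, αD KO minus WT, ran from 1.24 (Cd177) to 2.51 (Camp), with edgeR adjusted p = 1 for each, against 0.0115% of 17356 genes called (2 genes, or 0 in the blocked fit, where 257 had p under 0.05 before adjustment). DESeq2 called 5 genes (0.0118%) and none of the 8, with no adjusted p for Ngp. Ltf in αD KO was 6161, 46.6 and 4893 CPM against 2064, 7.06 and 249 CPM in WT, and the libraries overlapped, as they did for each of the other genes, while 1.69% of genes tested were higher without overlap. Within the library numbers αD KO exceeded WT in all 8 genes, by a median of 2.64-fold in 1a, 1.89-fold in 1b and 13.3-fold in 2. Lcn2 and Olfm4 had an unadjusted p under 0.05 (0.0200 and 0.0468), 2 of 8 genes against 0.709% of genes tested. In lung at 0h the differences ran from 1.51 (Ly6g) to 5.08 (Ngp), and all 8 had an unadjusted p between 0.0181 and 0.0444, against 1.86% of genes tested. With adjustment over 18232 genes all 8 were at adjusted p = 0.983, and edgeR called no gene (0.0%), while DESeq2 called 7 genes (0.0163%), none of them among the 8. In the same lung libraries erythroid markers summed to between 2149 and 3241 CPM in αD KO and between 88.5 and 1069 CPM in WT, and B cell markers to between 49.9 and 443 CPM and between 478 and 750 CPM, both without overlap. Monocyte and macrophage markers, at most 603.7 CPM in αD KO and at least 603.8 CPM in WT, were all but touching. The part of these markers in the differences was not tested.

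Much of the difference in lung at 0h lay in αD KO library 2, 1 of the 3 libraries in doubt. Ngp in αD KO was 9367, 70.6 and 34167 CPM against 619, 48.2 and 579.6 CPM in WT. Without αD KO library 2 the fitted difference was 1.01 in place of 3.67 for Lcn2, 2.26 in place of 4.62 for Chil3 and 3.51 in place of 5.08 for Ngp (edgeR adjusted p = 0.963 for each). It was 1.48 in place of 3.28 for Olfm4, 1.37 in place of 2.70 for Cd177 and 1.56 in place of 1.51 for Ly6g. Ltf and Camp stood at 3.04 and 3.60, and αD KO library 1a was 10.9-fold and 16.7-fold above WT library 1a. In library 1b the median ratio of αD KO to WT was 1.53 over the 8 genes. With the library number as a replicate block and library 2 kept, the differences ran from 1.28 (Ly6g) to 3.57 (Ngp), with Lcn2 at 2.11 (edgeR adjusted p = 0.764 for each).

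**Figure D4:**
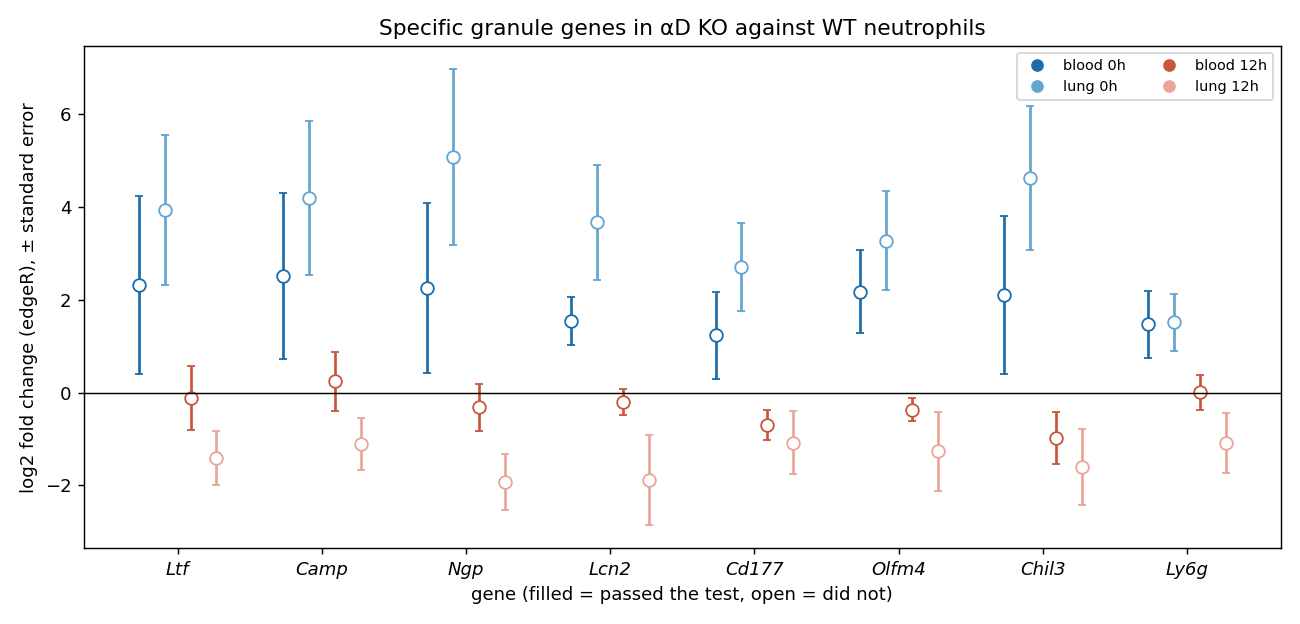
Fitted log2 difference of each gene between αD KO and WT (edgeR), with bars of 1 standard error, in blood and lung at 0h and 12 hours. Every point is open since none passed the test, the 0h points lie between 1.24 and 5.08, and the lung 12-hour points lie between −1.93 and −1.08.

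At 12 hours post CLP in blood the log2 differences, αD KO minus WT, ran from −0.98 (Chil3) to 0.24 (Camp), no gene of the 8 passed (adjusted p between 0.962 and 0.999) and none of 12596 genes did (0.0%), 505 with p under 0.05 before adjustment, and 14 genes called by DESeq2 (0.0363%) included none of the 8. Lcn2 in αD KO was 14441, 15647 and 14348 CPM against 21228, 15286 and 17292 CPM in WT, a difference of −0.20 (SE 0.27). Cd177 was the only gene of the group without overlap, with 5945, 4125 and 4697 CPM for αD KO against 12182, 6448 and 6664 CPM for WT (−0.70, SE 0.33, adjusted p = 0.962), and 6.32% of genes tested were lower without overlap. Eosinophil markers summed to at most 4.48 CPM in αD KO and at least 7.63 CPM in WT, and alveolar macrophage markers to at most 5.68 CPM and at least 7.47 CPM, and their part was not tested. The direction of Ly6g, Ltf, Camp and Ngp changed with the setting, so no direction is given for these 4 genes.

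In lung at 12 hours all 8 fitted levels were lower in αD KO, by differences from −1.93 (Ngp) to −1.08 (Cd177 and Ly6g). None passed with edgeR (adjusted p between 0.598 and 0.689, 0.0% of 16764 genes called), and Ngp and Ltf had an unadjusted p under 0.05 (0.0132 and 0.0431), against 8.29% of genes tested. Monocyte and macrophage markers summed to between 460 and 733 CPM in αD KO against between 249 and 299.8 CPM in WT, without overlap, and B cell markers to between 72.8 and 507 CPM against between 30.0 and 101 CPM. What part they had was not tested. Ngp in αD KO was 3472, 10002 and 4903 CPM against 32477, 14467 and 26556 CPM in WT, lower without overlap as in 5.77% of genes, and DESeq2 called it (adjusted p = 0.0440) and no other of the 8 (0.365% of the genes it tested). Without both 1b libraries, which leaves αD KO with the 2 libraries in doubt, 7 of the 8 genes passed and 30.1% of all genes tested were called. Without those 2 libraries αD KO was represented by library 1b alone, assumed to vary as the WT libraries did, and only 22 of 22200 genes had an unadjusted p under 0.05, so that fit says nothing on the stability of the result. Its differences were −2.08 for Ltf, −1.86 for Camp, −1.34 for Ngp and −0.88 for Ly6g and lay between −0.67 and −0.05 for Lcn2, Cd177, Olfm4 and Chil3.

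The difference of the CLP change between the genotypes was tested as an interaction. In blood the fitted difference, αD KO minus WT, was negative for all 8 genes, from −2.95 (Chil3) to −1.45 (Ly6g) on the log2 scale, and none passed (edgeR adjusted p = 1, 0.0% of 19792 genes, 232 with p under 0.05 before adjustment). By DESeq2, 1 gene of the table (0.00232%) and none of the 8 was called. In lung the differences were −7.08 for Ngp, −6.35 for Chil3, −5.70 for Lcn2, −5.41 for Ltf, −5.35 for Camp, −4.65 for Olfm4, −3.85 for Cd177 and −2.63 for Ly6g. All had an unadjusted p under 0.05, against 10.5% of 23211 genes, and all had an adjusted p of 0.410 (edgeR, 0.0% called). DESeq2 called 6 of the 8, against 0.707% of the genes it tested, with Cd177 at an adjusted p of 0.0511 and Ly6g at 0.0975. Without the 3 αD KO lung libraries in doubt the differences lay between −5.42 (Camp) and −1.48 (Cd177), and none passed (adjusted p = 1), where only 105 of 28853 genes had p under 0.05 before adjustment, so this says nothing on stability. In αD KO lung, a smaller change with CLP and libraries placed under another time cannot be told apart.

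The patterns of the 8 genes over the libraries were set side by side. As a measure of unlikeness, the root mean square difference of log2 CPM was taken between each pair of genes over the 24 libraries, after centring each gene at its mean. Ltf and Camp were the closest pair (0.49), and each was the nearest gene to the other among all genes compared. Ngp was at 0.75 from Ltf, 0.87 from Camp and 0.80 from Chil3. A second set was made of Cd177, Olfm4 and Lcn2, with Olfm4 at 0.55 from both others and Cd177 at 0.88 from Lcn2. Between the sets the distances ran from 1.20 (Chil3 and Olfm4) to 1.95 (Ltf and Lcn2), so Chil3 was nearer to Olfm4 than to Camp. Ly6g was at between 1.24 (Cd177) and 2.53 (Ngp) from the others. The measure is not scaled, so genes of unequal spread are apart by that alone, and the SD of log2 CPM over the libraries was 1.30 for Ly6g and 3.57 for Ngp. The libraries share depth, tissue and time, so these values describe likeness in this set of libraries and carry no test.

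**Figure D5:**
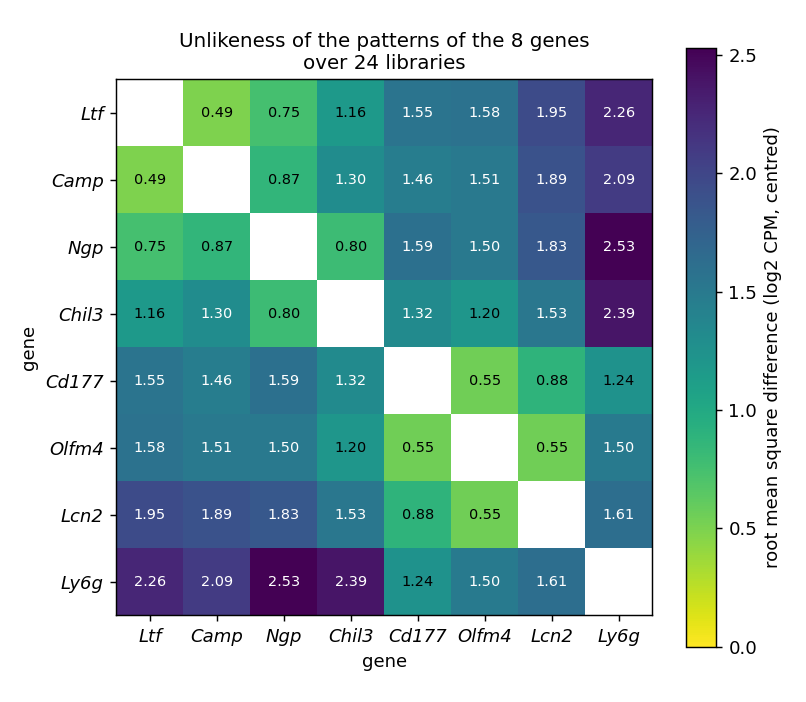
Root mean square difference of centred log2 CPM between each pair of the 8 genes over 24 libraries, where a lower value (lighter) means a more similar pattern. Ltf, Camp, Ngp and Chil3 form a block of low values, from 0.49 to 1.30, Cd177, Olfm4 and Lcn2 form another, from 0.55 to 0.88, and Ly6g is 1.24 or more from every other gene.

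Outside the group, 9682 genes were compared with each of the 8. The genes nearest to Ltf, Camp and Ngp were the same for all, I830127L07Rik (1.19, 1.04 and 1.25), Itgb2l, a β2-like integrin chain, (1.31, 1.22 and 1.29) and Serpinb1a, an inhibitor of neutrophil serine proteases, (1.38, 1.29 and 1.31). Chil3 had the same genes in another order, with Serpinb1a first (1.03). For Cd177 they were Itgb2l (0.44), 4930438A08Rik (0.47) and Serpinb1a (0.47), and for Olfm4 they were Flot2 (0.55), Ifitm6 (0.56) and Serpinb1a (0.59). Lcn2 had other neighbours, Qsox1, a sulfhydryl oxidase, (0.48), Upp1, uridine phosphorylase, (0.53) and Ddx28 (0.57). Nearest to Ly6g was Ly6c2 (0.49), a gene of the same family on the myeloid surface, followed by Tst (0.56) and Tinagl1 (0.65).

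Other genes of the specific granule, from a list of 22, changed in part with the 8. For this and the lists below, the shares of all genes tested that passed higher were 7.75% in WT blood, 5.24% in WT lung and 3.75% in αD KO blood, and those that passed lower were 841 of 14625, 562 of 14859 and 707 of 14156 genes. In WT blood 6 of 21 tested passed higher and none lower (median 0.95, beside −0.15 over all genes), among them Orm1, an acute-phase lipocalin, by 7.47 (SE 0.84, adjusted p = 0.0032), Anxa3 by 4.16, Wfdc21 by 4.04 and Mmp8, neutrophil collagenase, by 3.11. In WT lung 7 of 20 passed higher and none lower (median 1.20, beside 0.03), with Orm1 at 9.48 (SE 1.20, adjusted p = 0.0063), Wfdc21 at 3.79 and Fcnb, ficolin-B, at 3.22. In αD KO blood 4 of 20 passed higher, Orm1 (6.88), Wfdc21 (3.07), Mmp8 (2.08) and 1 more, and Lyz2, lysozyme, passed lower (−3.11). None passed in αD KO lung, where the lists were tested only with the 3 libraries in doubt included.

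The azurophil granule is filled at an earlier stage. Mpo and Elane, its myeloperoxidase and elastase, were at most 2.22 and 1.26 CPM in any library, and were singled out after their values were seen. These genes do not stand for the others of the azurophil list. Of the azurophil genes reported here, Ctsc, the protease that activates the granule serine proteases, passed higher in WT blood (2.5) and in WT lung (3.73), and none passed in αD KO blood. Of the gelatinase granule list of 9, Qsox1 (4.29), Mmp25 (3.05) and Retnlg (2.59) passed higher in WT blood, Qsox1 (4.92) and Mmp25 (2.27) in WT lung, and Qsox1 (3.85) and Retnlg (1.91) in αD KO blood, where Hpse, heparanase, passed lower (−3.65). In αD KO lung no gene of the azurophil or gelatinase list passed.

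Of 11 factors of granulopoiesis, Klf5 passed higher in WT blood (2.35), WT lung (2.57) and αD KO blood (2.40), and Csf3r passed lower in these comparisons (−2.58, −1.81 and −2.37). Cebpd passed lower in WT blood (−1.97) and Cebpa higher in WT lung (2.14). Cebpe, the gene of C/EBPε, was singled out likewise, lay between 4.71 and 35.2 CPM over all libraries and passed in none of the 4 CLP comparisons. Of 19 genes of proliferation tested in WT blood none passed higher and Cdc20 passed lower (−2.78), and none passed in WT lung, αD KO blood or αD KO lung. Of the mature neutrophil list of 15, 2 passed higher and 5 lower in WT blood, where Ccl6 (−3.71) and Il1b (−2.91) were lower and the formyl peptide receptor gene Fpr2 (3.18) higher. In WT lung 2 passed each way, and in αD KO blood 4 passed higher and 6 lower.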

How the data were processed

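The deposited files hold raw counts of uniquely mapped exon reads per Ensembl gene, which the authors made from SMART-Seq v4 cDNA and Nextera XT libraries. The submitters' processing notes name Trimmomatic 0.36 and STAR 2.5.2b, and coordinates in the files were those of GRCm38 for 44858 of 49315 genes. Of the gene identifiers, 48970 were matched to a symbol. Whether counting used strand, and any counting tool beyond these, is not given in the sources used here. Multi-mapped reads of close paralogs are not counted.

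The counts of the 2 files under sample 1 differed between files by far more than sampling noise in every group (chi-square per degree of freedom 63.5 to 328.5), so each was taken as a library, and a sum of both was an alternative. Each comparison was fitted on all genes of its groups with edgeR's quasi-likelihood F test (TMM scaling, filterByExpr, Benjamini-Hochberg adjustment over all genes tested), and a gene passed at an adjusted p under 0.05 and an absolute log2 change over 1. The SE was taken from the log2 change and the F value. An exact permutation test of 3 against 3 libraries cannot go below p = 0.1 and was not used. Alternatives were DESeq2's Wald test, other scalings and filters, a shared fit of all groups, library subsets, the library number as a replicate block, and leaving out each library. The interaction fit without the 3 αD KO lung libraries in doubt was added after seeing the data. Deviations from the group means correlated within every library number by over 0.1 in WT blood (0.25, 0.35 and 0.11 for 1a, 1b and 2), in both comparisons of tissues and in both comparisons of genotypes at 0h, where the numbers were taken to pair the libraries, but not in the other comparisons. The main fits did not use this pairing, and among the fits only the replicate block did. The edgeR and DESeq2 fits were tried on simulated data with the same dispersion for every gene and no effect of library number. This checks the code and does not bear on the calls made here.

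The 8 genes and the other lists were chosen with earlier results of these data known. All 8 genes were named in every comparison, with up to 4 called genes of the largest absolute change per list and the 3 nearest genes in pattern among those with a mean log2 CPM of at least 1 (prior count 1). A result of the azurophil list is not reported here. Promoters came from RefSeq and were searched for motifs by their letters. Software was R 4.3.3, edgeR 4.0.16, limma 3.58.1, DESeq2 1.42.0, Python 3.11.15, pandas 2.3.3, numpy 2.4.6 and matplotlib 3.10.9.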

Additional observations from a re-analysis of the deposited data

How the results depend on the processing

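Of 968 fitted log2 changes of the 8 genes under settings other than leaving out 1 library, 864 stayed on the same side of the threshold with the same sign, 14 lost a call, 54 gained one and 36 changed sign. With single libraries left out as well, these were 1529, 73, 58 and 76 of 1736. The cause of each change below was not tested, and the few libraries per group limit every call. Of the 8 genes in WT blood, 1 was called without a filter on low counts and 8 were called with DESeq2 and with the replicate block. In WT lung 4 were called when all 8 groups shared a fit. In αD KO blood the number called was 1 with total counts as scaling, 5 without a filter, 0 with all groups in a fit, 6 with the files of sample 1 summed, 7 with libraries 1a and 2 only and 5 with the replicate block, and Ly6g turned to −0.42 with 1a and 2 only. The lung 12-hour comparison of genotypes had 1 call with DESeq2 and 7 with 1a and 2 only. WT lung against blood at 12 hours had 1 call with DESeq2 and 2 each with summed files and with 1a and 2 only, where Ly6g turned to −0.20. The lung interaction had 6 calls with DESeq2 (0.707% of all genes) and 7 with 1a and 2 only, when 2480 of 18773 genes were called and both αD KO 12-hour libraries were ones in doubt. Leaving out 1 library at a time gave 0 to 6 calls in WT blood, 0 to 8 in WT lung, 0 to 3 in αD KO blood and 0 to 2 for WT lung against blood at 12 hours. On the TPM scale the 8 genes made up 5.70% of WT lung at 12 hours.

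In αD KO lung 2 genes were called without the libraries placed away from their time label, where Ngp was 0.85 and Chil3 2.52. With the replicate block Ltf was 0.37, Camp 0.24 and Olfm4 −0.25. Lcn2 was −0.064 with RLE scaling, −0.30 without a filter and with all groups in a fit, −0.14 with DESeq2, −1.03 with summed files and −2.43 with 1a and 2 only. Cd177 was −0.016 without a filter, −0.029 with all groups, −0.54 with summed files and −1.40 with 1a and 2 only. Olfm4 was −0.17 without a filter, −0.013 with DESeq2, −0.18 with all groups, −0.86 with summed files and −2.23 with 1a and 2 only, and Ly6g was −0.17 with 1a and 2 only. With single libraries left out the ranges were −1.36 to 0.21 for Ltf, −1.82 to 0.33 for Ngp, −1.87 to 2.63 for Lcn2, −0.85 to 1.54 for Cd177, −1.67 to 1.87 for Olfm4 and −2.53 to 1.39 for Chil3.

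Between genotypes in blood at 12 hours, Ltf was 0.22 with summed files and 0.25 with 1a and 2 only. Ly6g was −0.013 with total counts, −0.050 without a filter, −0.0024 with at least 10 counts in every library, −0.019 with DESeq2, −0.065 with all groups, −0.25 with summed files, −0.58 with 1a and 2 only and −0.14 with the replicate block. With single libraries left out the ranges were −0.65 to 0.54 for Ltf, −0.15 to 1.31 for Camp, −0.61 to 0.043 for Ngp and −0.58 to 0.18 for Ly6g. For WT lung against blood at 0h, Chil3 was 0.25 with the replicate block, and the ranges were −2.27 to 0.84 for Ltf, −2.30 to 0.74 for Camp, −2.23 to 0.95 for Ngp, −0.086 to 0.48 for Lcn2, −1.30 to 0.056 for Cd177, −0.19 to 0.91 for Olfm4, −1.63 to 0.82 for Chil3 and −0.66 to 0.38 for Ly6g. At 12 hours they were −1.30 to 0.28 for Camp and −0.16 to 1.20 for Ly6g. For the difference of the CLP change between WT lung and blood, Ltf was −0.39 and Ngp −0.37 with the replicate block, and the ranges were −1.77 to 1.34 for Ltf, −1.65 to 1.85 for Camp, −2.04 to 1.10 for Ngp and −1.48 to 0.044 for Cd177.

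Scaling by total counts moved the median log2 change of all genes by −0.45 in WT blood, −0.60 in WT lung and −0.38 in αD KO blood. With the replicate block 7 of 8 genes were called in WT lung (893 of 14859 over the whole table), where the block left Ly6g at an edgeR adjusted p of 0.0687. For the 8 genes the block changed no call in αD KO lung, in either comparison of tissues, in the comparisons of genotypes or in the interactions.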
